A study of Mus musculus with 2 samples.

Results

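The genes described here are 39 genes of liver plasma proteins and hepatocytes, read in RNA of the mouse adrenal gland. They are 39 symbols, of which 38 are listed with reads in the deposited transcript tables, where 18179 annotated genes had reads. The set was chosen by its difference between the libraries, with results of these same data known, so that difference is described and not tested. The study holds 1 group of 2 long-read RNA libraries, replicate 1 and replicate 2. Both were made from total RNA of adrenal gland tissue of a female B6CASTF1/J mouse, a cross of the B6 and CAST strains, aged 10 days, with no treatment or altered gene named. The labels give both libraries 1 donor and 1 animal number in the library text but different animal numbers in the text of the tissue sample, so whether they came from 1 or 2 animals cannot be told apart. No condition is compared: each comparison sets 1 library against the other.

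The liver makes most proteins of blood plasma. Hepatocytes secrete albumin, carriers of iron, haem, hormones and vitamins, apolipoproteins, clotting factors, protease inhibitors and complement proteins, each from abundant mRNA. Inside, the same cells hold enzymes of the urea cycle, amino acid breakdown and drug oxidation. The adrenal gland itself is known for steroid hormones, made in its cortex, and adrenaline, made in its medulla.

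After spike-in reads were set aside, replicate 1 had 593165 reads and replicate 2 had 772154 reads. Levels are given as reads and as CPM, the reads of a gene scaled to a common library size (counts-per-million), so that 1 read is worth 1.69 CPM in the first and 1.30 CPM in the other. A count of 0 allows up to 3 reads, which is 5.06 and 3.89 CPM. The adrenal markers were present in both: 7 genes of steroid synthesis in the cortex took 16881 and 20771 CPM, and 6 genes of the adrenaline-producing chromaffin cells took 4894 and 5437 CPM. Other tissues differed: 6 kidney genes had 0 reads in replicate 1 and 486 reads in replicate 2, and 5 skeletal muscle genes had 6107 and 2633 reads, a CPM ratio of 3.02. Since the tissue was measured in bulk, more cells of a type and more RNA per cell cannot be told apart.

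The liver genes made up 15746 reads, 2.65% of replicate 1, and 3245 reads, 0.420% of replicate 2. Their summed level was 26546 CPM in the first library and 4203 CPM in the other, a mean of 15374 ± 15799 CPM (SD, n = 2), and the ratio was 6.32 with a 95% counting interval of 6.08 to 6.56. These intervals are exact, take in counting error only and say nothing of the spread between animals. Of the 39 genes, 38 had reads in replicate 1 and 36 in replicate 2. Of the 37 genes with 10 or more reads summed, 36 were at least 2-fold higher in replicate 1, none was at least 2-fold higher in replicate 2, and 1, Apoc1, lay between. Over all 10567 genes with as many reads, 9.45% were 2-fold higher in replicate 1 and 4.09% in replicate 2. The median log2 ratio was 2.61 over the 37 genes and 0.04 over all genes. The choice of the genes used this contrast, so their share shows only what they were picked for. The choice did not use which transcripts the reads came from.

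**Figure D1:**
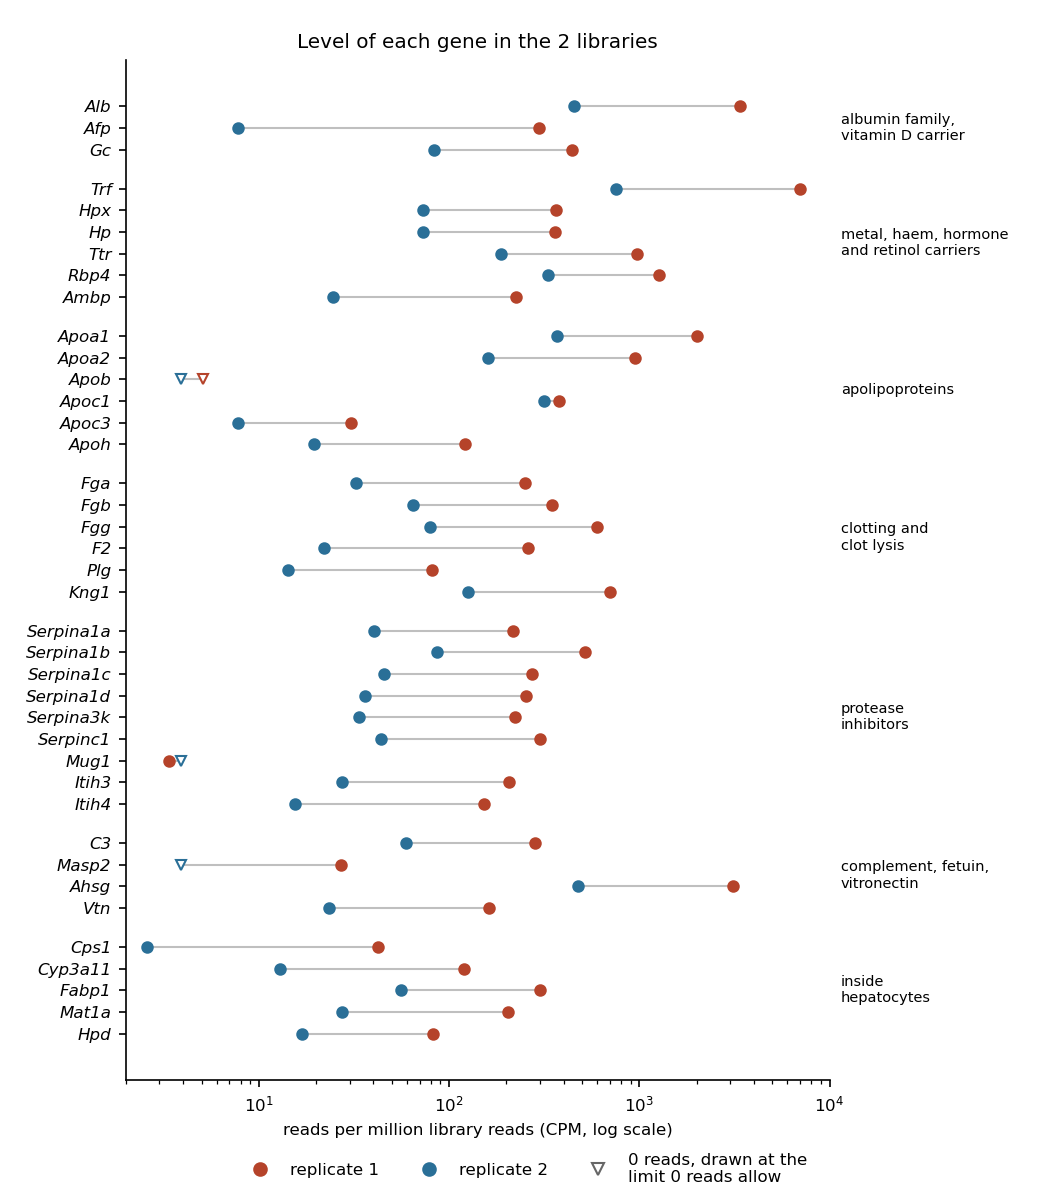
Level of each of the 39 genes in replicate 1 (red) and replicate 2 (blue), in CPM on a log axis, grouped by role; open triangles stand for 0 reads and sit at the limit that 0 reads allow. The red point lies to the right of the blue one for each gene with 10 or more reads, by the least for Apoc1 (379 against 315 CPM), and Apob has no read in either library.

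Albumin and its relatives carry fatty acids, hormones and vitamin D in plasma. Alb, which encodes the most abundant plasma protein (ENSMUSG00000029368.10, chromosome 5, 90460897 to 90476602 of mm10), had 2008 reads in replicate 1 and 351 in replicate 2, a ratio of 7.45 (6.65 to 8.37). Afp encodes the albumin of the fetus and is known to fall in the liver after birth. It lies next to Alb on chromosome 5, 90490737 to 90508907. Afp had 177 and 6 reads, a ratio of 38.4 (17.3 to 106), whose interval lies wholly above that of Alb. Per 100 reads of Alb there were 8.81 reads of Afp in replicate 1 (7.52 to 10.3) and 1.71 in replicate 2 (0.623 to 3.76). Gc, the vitamin D carrier of the same family, had 264 and 64 reads, a ratio of 5.37 (4.07 to 7.17) that overlaps that of Alb.

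The carriers of iron, haem, hormones and retinol held the gene with most reads. Trf encodes transferrin, which carries iron in plasma (chromosome 9, 103204001 to 103230444). It had 4167 reads in replicate 1 and 584 in replicate 2, a ratio of 9.29 (8.52 to 10.1). By reads, Trf ranked 1 among all annotated genes of replicate 1 and 172 in replicate 2. Ahsg and Alb ranked 13 and 10 in replicate 1, and 304 and 325 in replicate 2. Hemopexin (Hpx, 216 and 56 reads) and haptoglobin (Hp, 214 and 56 reads) bind free haem and haemoglobin, and their counts were nearly equal in each library. Ttr, the carrier of thyroid hormone, had 578 and 145 reads, a ratio of 5.19 (4.32 to 6.27). Rbp4, which carries retinol and binds to transthyretin in plasma, had 750 and 255 reads, a ratio of 3.83 (3.32 to 4.43). Rbp4 is also made by fat cells, and 6 brown fat genes stood at 9488 CPM in the first library and 14259 CPM in the other. The part of those cells in the count of Rbp4 was not tested. Ambp, which encodes the joint precursor of alpha-1-microglobulin and the protease inhibitor bikunin, had 134 and 19 reads.

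The apolipoproteins held Apoc1, the gene with the lowest ratio of the set. Apoa1, the main protein of high-density lipoprotein (chromosome 9, 46228580 to 46230466), had 1197 and 286 reads, a ratio of 5.45 (4.78 to 6.22). Apoa2, its partner on the same particles, had 564 and 124 reads. Apoh, which binds phospholipids, had 72 and 15 reads, and Apoc3, an inhibitor of triglyceride clearance, had 18 and 6, with a wide interval of 1.49 to 12 around its ratio of 3.91. Apoc1, a small exchangeable apolipoprotein (ENSMUSG00000040564.14, chromosome 7, 19689481 to 19692660), had 225 reads in replicate 1 and 243 in replicate 2. That is 379 and 315 CPM, a ratio of 1.21 (1.00 to 1.45). Per 100 reads of Alb, Apoc1 had 11.2 reads in replicate 1 (9.72 to 12.9) and 69.2 in replicate 2 (58.5 to 81.8). Apob, the structural protein of very-low-density lipoprotein, had 0 reads in both libraries. Its annotated transcript of 13.9 kb is the longest of the set, and whether such a length can be read in full was not tested.

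Neighbouring lipid genes were set beside Apoc1. Apoc1 shares a stretch of chromosome 7 with Apoe, Apoc4 and Apoc2, which were picked for their position. Apoe, a ligand of lipoprotein receptors that is also made by macrophages and steroid-producing cells, had 3646 and 1932 reads, a ratio of 2.46 (2.32 to 2.60). Apoc4 had 91 and 51 reads (2.32, 1.63 to 3.34) and Apoc2 21 and 7 reads (3.91, 1.60 to 10.9). The ratio of Apoe lies above that of Apoc1 and below that of Alb without overlap. On chromosome 9, the ratios of Apoa1 and Apoc3 overlapped that of their neighbour Apoa5, with 23 and 6 reads (4.99, 1.98 to 15.0). The 4 macrophage genes with 10 or more reads had a median log2 ratio of 0.34, and none differed by 2-fold.

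All 6 genes of clotting and clot lysis were more than 2-fold higher in replicate 1. The 3 chains of fibrinogen, the clot's building block, are encoded by genes that lie within 42.1 kb of chromosome 3. Fgg, for the gamma chain, had 356 and 61 reads, a ratio of 7.60 (5.78 to 10.1). Fga, for the alpha chain, had 149 and 25 reads (7.76, 5.06 to 12.4) and Fgb, for the beta chain, 207 and 50 (5.39, 3.94 to 7.49). The intervals of the 3 chains overlap. F2, prothrombin, had 154 and 17 reads, a ratio of 11.8 (7.13 to 20.8), and Plg, the precursor of the clot-dissolving protease plasmin, had 48 and 11 reads. Kng1, which encodes kininogen, the source of bradykinin (chromosome 16, 23057865 to 23082078), had 415 and 97 reads, a ratio of 5.57 (4.45 to 7.02).

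Of the 9 protease inhibitor genes, 8 had 10 or more reads and all 8 were higher in replicate 1, at ratios from 5.37 (Serpina1a) to 9.76 (Itih4). Serpina1a, Serpina1b, Serpina1c and Serpina1d are mouse copies of the gene for alpha-1-antitrypsin, the inhibitor of neutrophil elastase. They had 128, 307, 161 and 150 reads in replicate 1 and 31, 67, 35 and 28 reads in replicate 2. Serpina1b was highest of the 4 in both libraries. Serpinc1, antithrombin, had 179 and 34 reads, and Serpina3k, a relative of the antichymotrypsins, 131 and 26 reads. Itih3 and Itih4, heavy chains of the inter-alpha-trypsin inhibitors, had 123 and 21 and 90 and 12 reads. Mug1, a large inhibitor of the alpha-macroglobulin family with a transcript of 4.66 kb, had 2 reads in replicate 1 and 0 in replicate 2, too few for a ratio.

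The 4 antitrypsin copies are so alike that their counts rest on few bases. Over a coding length of 1239 bases, their main annotated transcripts in GENCODE M21 were identical at 96.5% to 98.5% of positions, the closest pair being Serpina1a and Serpina1c, which differ at 19 positions. All 4 agree except at 69 positions. The coding bases 857 to 916 hold 14 of these, the most in any window of 60 bases, and are shown with each base that differs between copies in capitals.
Serpina1a: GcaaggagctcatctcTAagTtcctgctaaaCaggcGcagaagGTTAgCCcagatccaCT
Serpina1b: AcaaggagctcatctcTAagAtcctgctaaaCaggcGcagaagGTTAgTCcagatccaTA
Serpina1c: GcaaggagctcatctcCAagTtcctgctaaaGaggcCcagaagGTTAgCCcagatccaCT
Serpina1d: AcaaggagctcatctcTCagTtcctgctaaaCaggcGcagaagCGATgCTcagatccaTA
A long read covers many such positions at once. How the authors' assignment shared reads among the copies is not given in the sources used here, so the split among the 4 genes is uncertain. Summed over these 4 copies, there were 746 and 161 reads. Serpina1e, a gene of the other liver lists that lies near them, had 62 and 15 reads, a ratio of 5.38 (3.02 to 10.2). It was left out of the alignment and of the sum, and whether reads were shared with it was not tested.

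Complement, fetuin and vitronectin genes followed the same order. Ahsg, fetuin-A, a plasma protein that keeps calcium phosphate in solution (chromosome 16, 22891277 to 22899449), had 1838 and 367 reads, a ratio of 6.52 (5.83 to 7.31). C3, the central protein of complement, had 167 and 46 reads (4.73, 3.39 to 6.70), and Vtn, vitronectin, an adhesion protein of plasma, had 96 and 18. Masp2, a protease that starts the lectin pathway of complement, had 16 reads in replicate 1 and 0 in replicate 2. Against the 3 reads that a count of 0 allows, Masp2 was at least 6.94-fold higher in replicate 1, a value that leaves out the counting error of its 16 reads. The exact interval of its ratio, which takes in that error, begins at 5.02.

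All 5 genes of proteins that stay inside hepatocytes were higher in replicate 1. Cps1, which makes carbamoyl phosphate for the urea cycle, had 25 and 2 reads, a ratio of 16.3 (4.06 to 142). Cyp3a11, a drug-oxidising cytochrome P450, had 71 and 10 reads (9.24, 4.74 to 20.1). Fabp1, the fatty acid binding protein of liver, had 179 and 43 reads (5.42, 3.87 to 7.75). Mat1a, which makes S-adenosylmethionine, had 121 and 21 reads, and Hpd, an enzyme of tyrosine breakdown, 49 and 13. The 5 genes together took 750 and 115 CPM, a ratio of 6.51 (5.17 to 8.27) beside 6.63 (5.80 to 7.60) for the clotting genes and 6.51 (5.69 to 7.48) for the protease inhibitors.

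Read by presence, 2 of the 37 genes were near-absent in replicate 2, with 3 reads or fewer: Masp2 and Cps1. Over all genes with 10 or more reads, 2.02% were near-absent there. The other 35 were present in both libraries with more than 3 reads in each. Both near-absent genes had few reads in replicate 1 as well, 16 and 25, fewer than any other of the 37 genes but Apoc3 with 18.

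The ratios are the values the choice rests on, so their spread is a description of the genes picked. The median ratio was 6.12, and 26 of the 37 genes had ratios between 4 and 9. Set against the interval of Alb, the intervals of 30 genes overlapped it. Those of 4 genes, Ttr, Rbp4, Apoa1 and Apoc1, lay wholly below, and those of Afp and Trf lay wholly above. For each 100 reads of Alb there were 91.5 reads of Ahsg in replicate 1 and 105 in replicate 2, and 17.7 and 17.4 reads of Fgg. Rbp4 stood at 37.4 and 72.7 reads per 100 of Alb, and Trf at 208 and 166. By its ratio, no gene lay near the 2-fold limit: the nearest above it were Rbp4 (3.83) and Apoc3 (3.91), and Apoc1 (1.21) was below it. The interval of Apoc3, 1.49 to 12, takes in a ratio of 2.

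**Figure D2:**
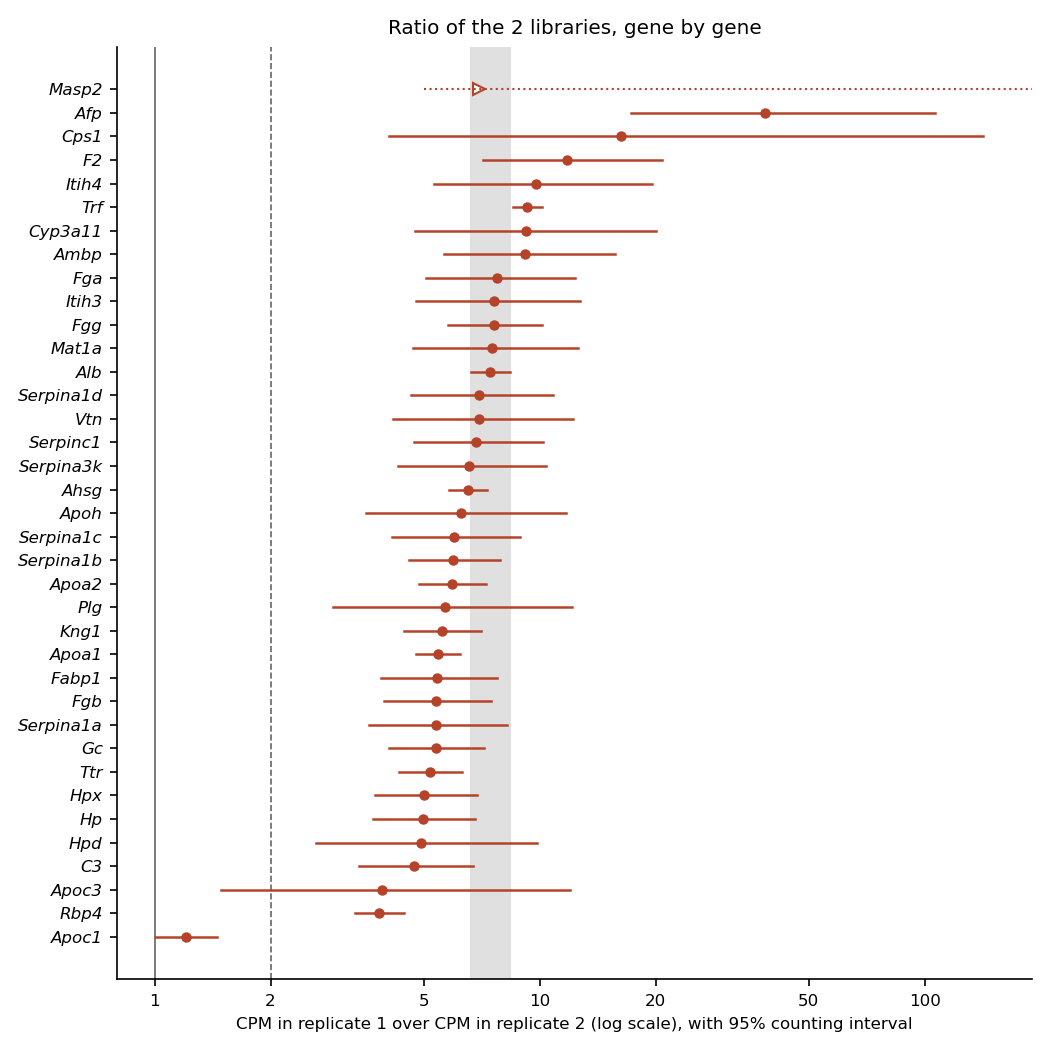
CPM of replicate 1 divided by that of replicate 2 on a log axis, with its exact 95% counting interval, for the 37 genes with 10 or more reads summed; the grey band is the interval of Alb, the dashed line a ratio of 2, and the open triangle the fold of Masp2 against 3 reads, since it had 0 reads in replicate 2, with a dotted line for its exact interval, which has no upper end. Most intervals cross the band, Afp and Trf lie above it, and Ttr, Rbp4, Apoa1 and Apoc1 lie below it.

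The order of levels was compared per length, as CPM per kilobase of the main annotated transcript. In replicate 1 the highest were Trf (2732 CPM per kilobase), Ahsg (2088), Apoa1 (1950), Apoa2 (1836) and Alb (1664). In replicate 2 they were Apoc1 (728 CPM per kilobase), Apoa1 (358), Rbp4 (352), Ahsg (320) and Apoa2 (310), with Trf at 294 and Alb at 223. Apoc1 thus stood at place 7 of the 39 in replicate 1 and at place 1 in replicate 2. A long read counts a molecule once whatever its length, so the order by plain CPM is given too: Trf, Alb and Ahsg led in replicate 1, and Trf, Ahsg and Alb in replicate 2.

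The promoters of these genes are shown as a description, and their part in the difference between the libraries was not tested. RefSeq windows of 300 bases on GRCm38.p6, from 250 before to 50 after the start, were found for 29 of the 39 genes (31 windows). The letters CAAAGTCCA, of a site of HNF4, a transcription factor of hepatocytes, were searched on both strands with up to 1 mismatch. They occur in 7 of the 31 windows, 22.6% (exact binomial interval 9.59 to 41.1), in 2783 of all 32851 promoter windows, 8.47%, and in 1 of 12 windows of cortex, chromaffin and brown fat genes. The windows of the genes on the other liver lists held them in 29 of 113 cases, 25.7%. The 4 stretches of 150 bases that end just before the start are printed 5′ to 3′ in the direction of the gene, with the match, here always on the strand opposite to the gene, in capitals: Afp (chr5:90490564-90490713, plus strand), Ahsg (chr16:22891865-22892014, plus strand), Hpx (chr7:105600117-105600266, minus strand) and Serpina1b (chr12:103738190-103738339, minus strand).
Afp: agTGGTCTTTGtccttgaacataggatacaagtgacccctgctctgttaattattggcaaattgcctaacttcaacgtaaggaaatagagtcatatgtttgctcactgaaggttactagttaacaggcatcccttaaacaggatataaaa
Ahsg: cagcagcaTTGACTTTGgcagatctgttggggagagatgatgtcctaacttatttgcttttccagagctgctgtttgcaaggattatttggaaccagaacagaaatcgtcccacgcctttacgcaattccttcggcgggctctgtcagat
Hpx: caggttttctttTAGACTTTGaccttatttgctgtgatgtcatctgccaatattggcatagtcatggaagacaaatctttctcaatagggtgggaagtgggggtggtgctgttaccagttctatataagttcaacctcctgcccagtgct
Serpina1b: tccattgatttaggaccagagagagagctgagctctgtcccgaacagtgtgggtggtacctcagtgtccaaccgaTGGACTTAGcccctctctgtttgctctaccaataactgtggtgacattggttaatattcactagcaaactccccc
The matches begin 148 bases before the start in Afp, 142 in Ahsg, 138 in Hpx and 75 in Serpina1b. The windows of Apoa2, Cyp3a11 and Serpina1a hold such a match too, and Hpx has another just after its start. The letters TTGCGCAA of a C/EBP site, with up to 1 mismatch, were in 19.4% of the windows of these genes and 5.92% of all, among them those of Fga, Fgb and Fgg, but in 3 of the 12 cortex, chromaffin and brown fat windows, 25%. The letters TATAAA were in 32.3% and 13.6%, and in 1 of those 12. A match of letters is a description, and no binding was measured. Hnf4a, a gene of the factor itself, had 8 reads in replicate 1 and 6 in replicate 2.

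Long reads also show which transcripts the reads came from, a measure that the choice of genes did not use. The authors' software TALON gives each read a transcript model and names its class: an annotated transcript, an incomplete match that lacks splice sites of one, a new combination of known splice sites, a new splice site, or a genomic model. Annotated transcripts held 73.8% of the liver gene reads in replicate 1 and 74.9% in replicate 2, beside 71.0% and 75.6% over all annotated genes. Incomplete matches held 21.6% and 17.6%, beside 13.5% and 11.8%. New combinations held 1.12% and 0.894%, and new splice sites 1.17% and 1.14%, where all genes had 4.68% and 4.22%, and 3.52% and 3.36%. Genomic models held 2.25% and 5.52%, beside 7.28% and 5%, and so were below all genes in replicate 1 and above them in replicate 2. Of the 179 genomic reads in replicate 2, 60 were on the leading single-exon model of Kng1, listed with 211 bases. In replicate 1 that model, listed with 212 bases and 175 reads, was classed as an incomplete match. Without those 60 reads the genomic share in replicate 2 would lie below that of all genes, so the change of order rests on the class given to that model. Rbp4 held more genomic reads, 217 of 354 in replicate 1 and 83 of 179 in replicate 2. In both libraries the pooled reads of the liver genes had lower shares of new combinations and new splice sites than all genes. They had a higher share of incomplete matches, and no test was made of these shares. Of the 3405 incomplete reads in replicate 1, Ahsg held 1141 and Alb 817. Of the 571 in replicate 2, Ahsg held 226 and Alb 146. The higher share thus describes the pooled reads and not each gene. Spliced 3′ parts, counted among the incomplete matches, held 11.7% and 9.15% of the reads, beside 9.67% and 7.76%.

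The share of a gene's reads on its main transcript was tested for the 15 genes that had 50 reads in each library. The shares were compared by Fisher's exact test (two-sided) with Benjamini-Hochberg adjustment over 2162 genes, which compares these libraries and not conditions. A gene was called at an adjusted p under 0.05 and a difference of 10 points. Over all genes 1.8% were called, and of the 15 genes 1 was, Kng1; the other 14 did not pass. The annotated transcript Trf-201 held 91.3% of Trf reads in replicate 1 (90.4 to 92.2) and 93.7% in replicate 2 (91.4 to 95.5). Ttr-201 held 92.0% and 94.5% of Ttr, Gc-201 92.8% and 92.2% of Gc, Apoa1-201 89.7% and 91.3% of Apoa1, and Apoc1-201 85.3% and 89.3% of Apoc1. Alb-201, of 15 exons, held 59.0% (56.8 to 61.1) and 57.3% (51.9 to 62.5). Apoa2 divided its reads between 2 annotated forms, Apoa2-204 (264 and 64 reads) and Apoa2-201 (251 and 49 reads).

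For Kng1, reads on single-exon models without annotation made up 177 of 415 reads in replicate 1, 42.7% (37.8 to 47.6), and 60 of 97 in replicate 2, 61.9% (51.4 to 71.5). The difference was -19.2 points (Fisher's exact test, p = 0.000687, adjusted p = 0.0309 by Benjamini-Hochberg over all genes tested). These reads lie within exon 11, the last of Kng1-202. The leading model runs from 23081478 to 23081689 on chromosome 16 in replicate 1, where its class is an incomplete match, and to 23081688 in replicate 2, where its class is genomic. The call did not hold when the 4880 genes with 20 reads in each library were tested, since the same p was then adjusted over more genes (adjusted p = 0.0670). Among spliced reads alone Kng1 had too few in replicate 2 to be tested. The spliced transcript Kng1-202 held 196 and 34 reads.

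Reads on single-exon models were counted next. Over the whole set they made up 12.1% and 13.9% of reads, a mean of 13% ± 1.28 (SD, n = 2), beside 14.5% and 12% over all genes. The count takes in annotated single-exon transcripts, which held part of these reads over all genes. The values given here for all genes are thus not of unannotated reads alone. Of the genes with 20 or more reads, the median share was 1.41% of 35 genes in replicate 1 and 1.65% of 25 genes in replicate 2, beside 6.25% and 4.35% for all genes. In both libraries 4 genes exceeded 25%: Ahsg (59.0% and 61.0%), Fgg (56.2% and 50.8%), Kng1 (42.7% and 61.9%) and Rbp4 (28.9% and 32.5%). That is 11.4% and 16% of the genes with 20 or more reads, beside 15.0% and 13.2% of all such genes, annotated single-exon transcripts counted. In Ahsg 1083 and 224 reads fell on a model of 647 bases that equals exon 7, the last of Ahsg-201 (chromosome 16, 22898797 to 22899443). In Fgg 187 and 29 reads fell on a model of 215 bases that equals exon 10, the last of Fgg-201 (chromosome 3, 83014835 to 83015049). The Rbp4 model of 217 and 83 reads is listed with a length of 2 bases at the 3′ end of the gene, which shows that the listed ends of a model are not the ends of its reads. Where a read stops short of the last splice site, its gene is counted but its transcript is not known.

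**Figure D3:**
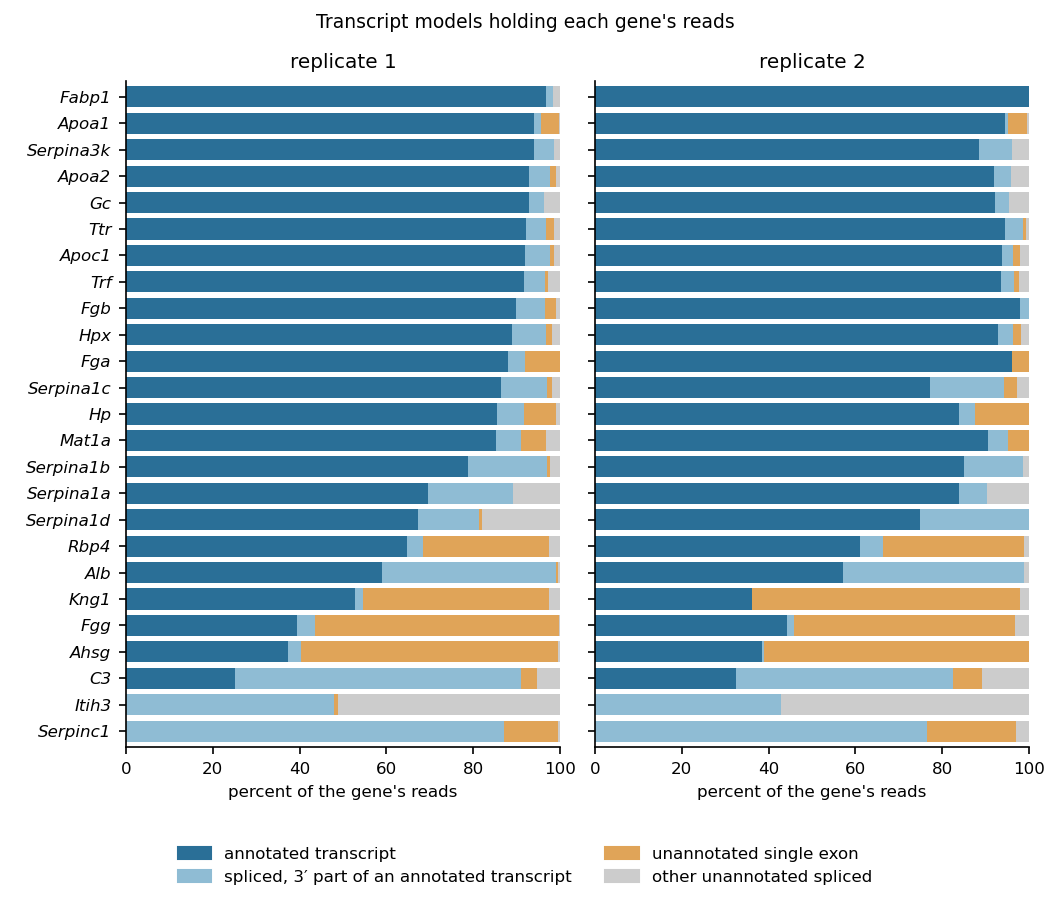
Share of each gene's reads, in percent, on annotated transcripts (dark blue), on spliced models that hold the 3′ part of an annotated transcript (light blue), on unannotated single-exon models (orange) and on other unannotated spliced models (grey), for the genes with 20 or more reads in each library. Alb and C3 have wide light blue bars, Ahsg, Fgg, Kng1 and Rbp4 wide orange bars, and Serpinc1 and Itih3 no dark blue bar in either library.

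Alb and C3 held many reads on spliced 3′ parts. For Alb these made up 40.1% of reads in replicate 1 and 41.6% in replicate 2. The 13 such models of Alb with 5 or more reads had from 2 to 14 of the 15 exons and thus began at each exon from 2 to 14. The model of 8 exons, which begins in exon 8 (at 90468481), held 411 and 94 reads, 20.5% and 26.8% of the gene, against 77 and 11 for the next in replicate 1. For C3, whose transcript of 5.14 kb has 41 exons, 110 of 167 and 23 of 46 reads were of this kind, and C3-201 held 42 and 15 reads, 25.1% and 32.6%. Whether these are short mRNAs or incomplete copies was not tested.

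For Serpinc1 and Itih3 no read fell on an annotated transcript in either library. The main model of Serpinc1 has 7 exons and held 136 of 179 reads in replicate 1 and 24 of 34 in replicate 2, 76.0% and 70.6%. It shares 6 introns with Serpinc1-201, which has 8 exons and 4970 bases, and lacks the first intron, so no read of it reached the annotated first exon at 160978646 to 160978715 of chromosome 1. Exon 2 of Serpinc1-201 begins at 160987441 and the model is listed from 160987087. The main model of Itih3 is a new combination of 21 exons with 51 and 10 reads, 41.5% and 47.6% of the gene. It equals Itih3-201 (22 exons) with exon 15 skipped, a coding exon of 3 bases at 30914049 to 30914051 on the minus strand of chromosome 14, between exon 14 (30914653 to 30914807) and exon 16 (30913161 to 30913193). The transcript of Itih3-201 around that exon is shown with the 3 bases in capitals.
Itih3: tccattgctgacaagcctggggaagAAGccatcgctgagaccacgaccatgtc
The tables hold no sequence of the reads, so whether the reads lack these bases was not tested. A 3′ model of Itih3 with 8 exons, of 7 and 1 reads, skips the same exon. The intron that skips this exon is absent from Itih3-201 but present in another annotated transcript, so that intron is not itself new.

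Models of new combinations or new splice sites held few reads of the set. The liver genes had 203 models of new combinations or new splice sites, of which 20 had reads in both libraries and 10 had 5 or more reads summed, and all together held 361 and 66 reads. Most abundant of the 10 was the Itih3 model described above, with 51 and 10 reads. Trf had 5 of the 10, those with most reads at 22 and 1 and 19 and 2, beside 3806 and 547 reads of Trf-201. Rbp4 had a model with a changed first intron (16 and 3 reads), Ambp a combination that skips an exon (6 and 0 reads) and Serpina1a one that joins its first exon to a later one (5 and 2 reads). A model of Serpina1d with 17 and 0 reads spans 103728158 to 103768047 on chromosome 12. It joins exons of Serpina1d to the last exon of Serpina1b across an intron from 103728434 to 103764667, and with copies this alike the join is uncertain.

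Other genes of the liver were taken from lists written for this comparison with earlier results known, none of which are among the 39. Of 68 other secreted proteins, 51 had 10 or more reads. Of these 39 were at least 2-fold higher in replicate 1 and 1 in replicate 2; their median log2 ratio was 1.81. Among clotting genes, Serpinf2, the plasmin inhibitor, had 143 and 26 reads (7.16, 4.69 to 11.3), Proc, protein C, 55 and 18, and Hrg 38 and 3. Itih1 and Itih2, the further chains of the inter-alpha-trypsin family, had 52 and 5 and 44 and 5 reads. Cfb, complement factor B, had 107 and 30 reads (4.64, 3.07 to 7.21). Some stood apart: Kng2, another kininogen gene beside Kng1, had 24 and 60 reads, a ratio of 0.52 (0.31 to 0.849), and C4b had 41 and 58 reads. Kng1 and Kng2 are close copies, and how reads were shared between them is not given in the sources used here.

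Of 55 other hepatocyte genes, 38 had 10 or more reads, 24 of them at least 2-fold higher in replicate 1 and 2 in replicate 2; their median log2 ratio was 1.67. The 6 membrane carriers, receptors and transcription factors that had enough reads had the highest median, 3.25, but few reads each, such as 16 and 3 for the asialoglycoprotein receptor Asgr1 and 10 and 1 for the bile acid carrier Slc10a1. Among enzymes of amino acid use, Bhmt had 71 and 9 reads (10.3, 5.12 to 23.4). Enzymes of sugar and lipid metabolism had a low median log2 ratio of 0.15, but not all of them stood apart. Of the 10 with enough reads, 3 were at least 2-fold higher in replicate 1 and 1 in replicate 2. Pck1, Fbp1 and G6pc, enzymes of glucose production, had 341 and 454, 81 and 132, and 14 and 38 reads. Acsl1, which activates fatty acids, had 344 and 355 reads, a ratio of 1.26 (1.08 to 1.47). Pck1, Fbp1 and G6pc are also genes of kidney tubules, and the kidney list had 0 reads in replicate 1 against 486 reads in replicate 2. The part of kidney RNA in these counts was not tested.

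Genes of the liver's other cell types were near the limit of reading. Of 17 such genes, 4 had 10 or more reads. The 5 genes of Kupffer cells, the liver's macrophages, had 27 and 7 reads summed, a ratio of 5.02 (2.13 to 13.7), among them Cd5l with 11 and 1 and Clec4f with 8 and 1. Stab2, of the sinusoidal endothelium, had 1 and 0 reads. Spp1, osteopontin, listed for bile ducts but made in many tissues, kidney among them, had 5 and 195 reads, and the bile duct keratins Krt19 and Krt7 had 2 and 3 and 3 and 9. At this depth, a difference was detectable for 4 of these 17 genes, Cd5l, Clec4f, Spp1 and Epcam (0 and 7 reads), whose counting intervals exclude a ratio of 1.

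**Figure D4:**
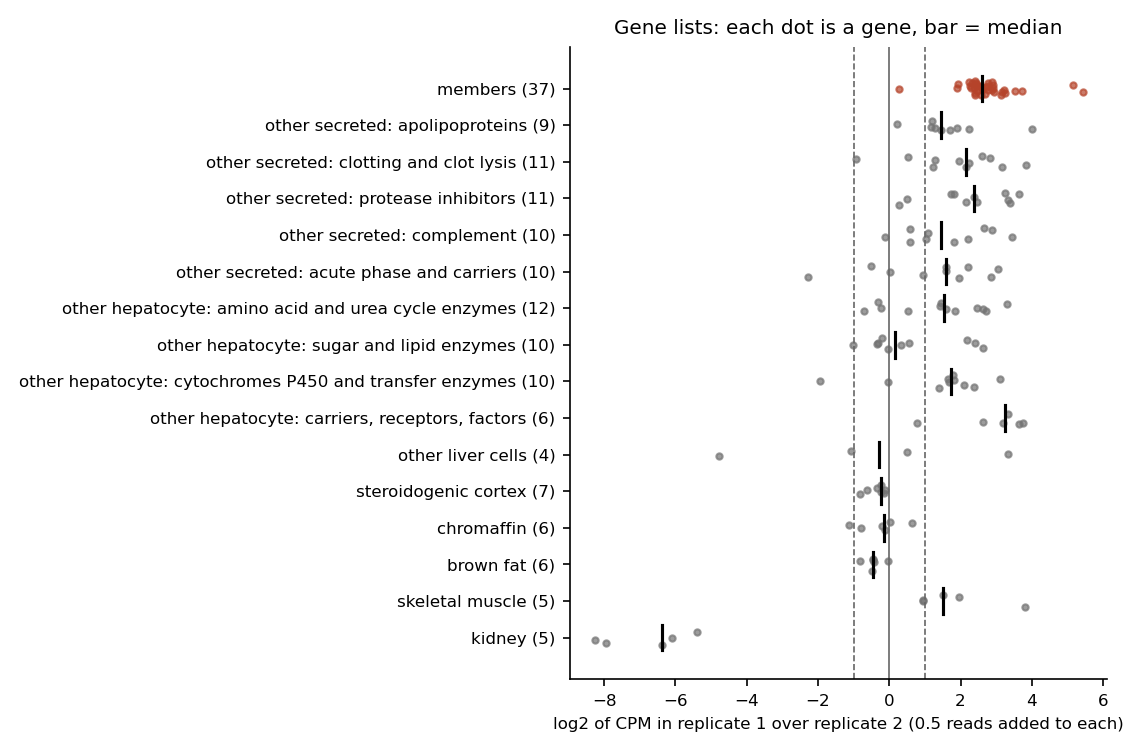
Log2 ratio of replicate 1 to replicate 2, with 0.5 reads added to each count, for the genes with 10 or more reads summed in each list (number in brackets); each dot is a gene, each black bar the median of its list, and dashed lines mark 2-fold. The 37 liver genes have a median of 2.61, the lists of steroid synthesis, chromaffin cells and brown fat have medians of -0.24, -0.15 and -0.46, and the kidney genes, with 0 reads in replicate 1, lie at values set by the 0.5 reads added.

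The adrenal and fat lists did not share the difference. None of 7 genes of steroid synthesis and none of 6 of brown fat differed by 2-fold, and 1 of 6 chromaffin genes, Phox2a with 6 and 18 reads, was higher in replicate 2. Skeletal muscle genes moved with the liver genes: 3 of 5 were at least 2-fold higher in replicate 1, led by the myosin Myh1 with 510 and 47 reads (14.1, 10.5 to 19.5). Globin and other erythroid genes had a median log2 ratio of 0.53, none 2-fold. The part of muscle, kidney, fat or blood RNA in the liver gene counts was not tested. With the reads of the steroid list as totals, the median of all genes moved to 0.34 on the log2 scale; 36 of 37 genes were again 2-fold higher, and the ratio of Apoc1 was 1.48 (1.23 to 1.79). With spike-in reads as totals the ratio of Apoc1 was 1.13 (0.939 to 1.36).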

How the data were processed

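Long-read RNA libraries of adrenal gland were used as deposited: per the file headers, each table holds 1 row for each TALON transcript model with its gene, class and a count of reads, and a matching annotation of exons on mm10 with GENCODE M21 names. The sources used here name no sequencing platform, aligner or tool version. Reads of each gene were summed over models, ERCC spike-in reads (13512 and 16500) were set aside, and the other reads of a library (593165 and 772154) were its total. SIRV spike-ins named in the labels were not analysed here.

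The genes, the lists and the tests were chosen with earlier results of these data known. Ratios are of CPM with an exact 95% counting interval, and a call needed 10 reads summed and a ratio of 2 with 0.5 reads added. Near-absent means 3 reads or fewer. Unannotated models were matched between libraries by their introns, and unannotated single-exon models were pooled in each gene. Main transcript shares were compared by Fisher's exact test in SciPy 1.17.1, after a check on simulated data. TMM factors (edgeR 4.0.16) served as another scaling. The labels do not settle whether the libraries come from separate animals, so intervals and p-values may measure technical spread alone. Named were the 39 genes, up to 5 genes a list with most reads and up to 2 with the largest ratio each way, main transcripts, and unannotated spliced models with 5 or more reads. Genes named for their position or motif are said to be so, and some genes of the lists and 1 motif are not reported here. Promoters came from RefSeq (GRCm38.p6), transcripts from GENCODE M21, aligned with MAFFT 7.526. No promoter window was matched for Hp, Serpina3k, Cps1, Ttr, Apoc1, Apoc3, Plg, Trf, Kng1 and Mat1a. Alternatives changed the totals, the models counted, the read minimum, the added reads and the libraries kept.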

Additional observations from a re-analysis of the deposited data

How the results depend on the processing

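No paired analysis was possible because the study has 1 group. The number of genes at least 2-fold higher in replicate 1, 36 of 37, was 33 to 37 under the other totals, models, minimums, added reads and ratios tried. It was 33 with annotated models only and with at least 50 reads summed, and 37 with no minimum of reads. A changed minimum also changes how many genes qualify, so these counts are not all out of 37. With 0 reads in place of 3 or fewer, 1 gene (Masp2) was near-absent in replicate 2 in place of 2. No gene's main transcript was called with a minimum of 20 reads in each library (0 genes) or among spliced models (0 genes; Ahsg reached an adjusted p of 0.0434 in Fisher's exact test there, at 7.75 points), against 1 gene as reported. With 20 reads, 25 genes of the set were tested in place of 15, Kng1 with the same counts but adjusted over more genes, and among spliced models 12 were, without Kng1. The single-exon share of 13% was 19.3% without Alb and Trf, and 12.1% to 13.9% in 1 library alone. Each library alone gave a summed level of 4203 to 26546 CPM, so with 2 libraries the mean says little. Depth limits Masp2, Cps1, Mug1, Apoc3 and the liver's other cell types.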
